A study of Mus musculus with 8 samples.

Results

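The Dlx homeobox genes Dlx1, Dlx2, Dlx5 and Dlx6 were followed in sorted Gfp-positive cells of the embryonic mouse midbrain. The members were chosen by gene symbol: every array probe whose symbol in the deposited annotation is one of these 4 names was taken, and its values were read from all 8 arrays. This gave 4 probes, 1 for each gene, of 55681 probes and 23912 named genes on the array. Because the genes were picked with the rostral and caudal values already known, their own values are given as a description and carry no test.

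Dlx genes encode homeodomain transcription factors related to Drosophila Distal-less. In mammals they lie in pairs that face each other, with enhancers in the stretch between the genes of a pair that can act on both. In the embryonic forebrain they are known for driving the differentiation and migration of GABAergic neurons in the subpallium, and they are also expressed in prethalamus and hypothalamus, whereas the GABAergic neurons of the midbrain are known to be specified by Gata and Tal factors instead.

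All embryos were Pitx3(gfp/+) mice at E14.5, so the controls share the genotype of the sorted cells: Gfp at the Pitx3 locus, heterozygous. Pitx3 is a transcription factor gene that marks dopaminergic neurons in the brain. Ventral midbrains were cut into a rostral and a caudal part, papain was used to free the cells, and sorting for Gfp gave 4 rostral and 4 caudal pools. A pool held tissue of 5 to 7 embryos, drawn across litters. Each pool was hybridised in Cy3 (green) to its own array against the same Cy5 (red) reference, a pool of the Gfp-negative cells of these specimens, so a log2 ratio of 0 means equal signal in sorted cells and reference. Where the cut lay, and which of the 2 sorter models collected which pool, is not given in the sources used here.

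The share of probes well above background ranged over the arrays from 62.5% to 70.4% in green and from 54.0% to 63.5% in red. The sort was checked with 3 dopaminergic genes: log2 ratios averaged 3.39 in rostral and 3.29 in caudal pools for Th, 6.10 and 5.86 for Slc6a3, and 3.58 and 3.59 for Pitx3. Rostral pool 2 stood apart from the other rostral pools. Its collagen gene Col1a1 had a log2 ratio of 3.73, against -1.95 to -0.93 in the other 3 rostral pools, and the green levels of 11 mesenchyme and pericyte markers summed to 21639 intensity units there, against 3354 to 4187 in the other rostral pools and 2872 to 3936 in the caudal pools. The differences of Dlx1, Dlx2 and Dlx5 are therefore given with and without this pool. Its part in these and in other values was not tested. The p-values below reflect pool-to-pool spread only, at a precision set by the 8 arrays.

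Dlx2, a regulator of GABAergic differentiation in the forebrain, was far lower in the caudal than in the rostral pools. Its log2 ratios to the reference were -1.82, -3.12, -1.62 and -2.03 in rostral pools 1 to 4 and -5.57, -5.42, -5.17 and -4.96 in caudal pools 1 to 4. The parts did not overlap, and within the rostral group pool 2 was the lowest. The means were -2.15 ± 0.67 in rostral and -5.28 ± 0.27 in caudal pools (SD, n = 4 each), a rostral-minus-caudal difference of 3.13 on the log2 scale (SE 0.30), or 8.78-fold. Without rostral pool 2 the difference was 3.46. The signals that Feature Extraction had already processed, to which no offset is added, gave 3.57. Even the rostral pools held less Dlx2 signal than the Gfp-negative cells: relative to the reference the rostral mean was 4.43-fold lower and the caudal mean 38.9-fold lower. In pooled cells, fewer cells that express a gene and less RNA per cell cannot be told apart.

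The scanner signals show where the Dlx2 difference lay. The green spot read 3113.5, 1244, 3186 and 2115 intensity units in rostral pools 1 to 4 and 227, 224, 314 and 306.5 in caudal pools 1 to 4, over a local green background of 72 to 79. The red spot, which holds the common reference, read 7291 to 11196.5 on the 8 arrays. After normalization the red log2 levels spanned 13.01 to 13.28 and their means differed by 0.04 between the parts, so the difference in the ratio was one of the green channel. The spot was well above background in both channels on all 8 arrays, and of the 4 genes this was the case for Dlx2 and Dlx5 only.

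**Figure D1:**
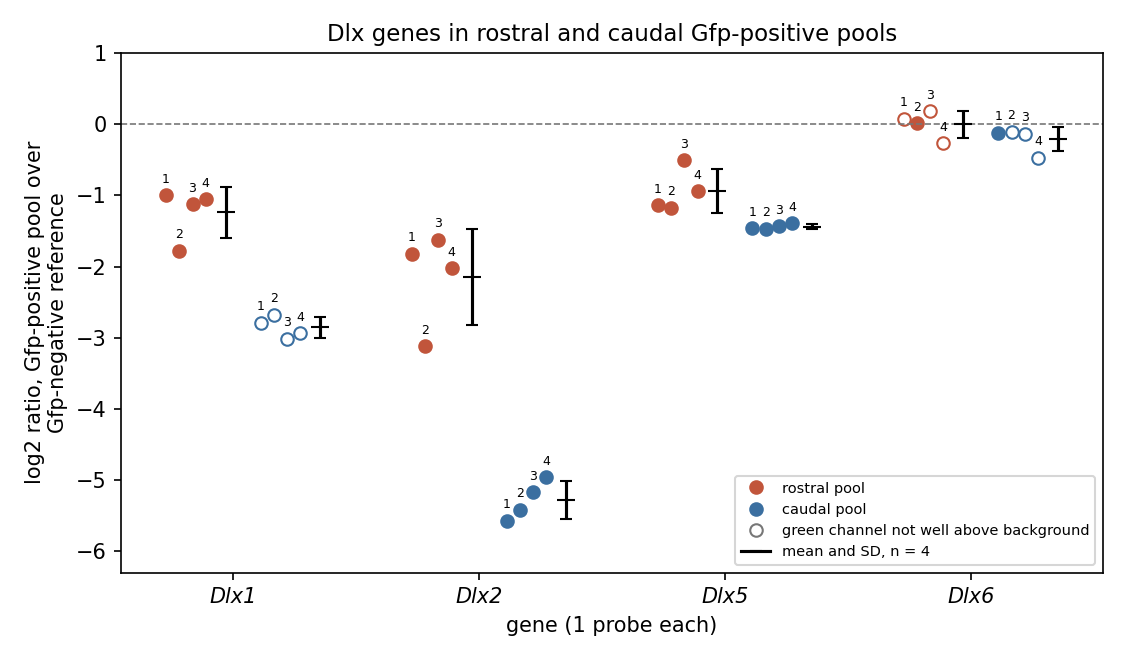
Log2 ratio of each Gfp-positive pool to the Gfp-negative reference for the 4 Dlx probes, with pool numbers above the points, open points where the green spot was not well above background, and bars for the mean and SD of 4 pools. Dlx1, Dlx2 and Dlx5 lie below 0 in all 8 pools with rostral above caudal pools, while the Dlx6 points of both parts lie around 0 and overlap.

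Dlx1, the neighbour of Dlx2 and its close relative in GABAergic differentiation, went the same way at a much dimmer signal. Its log2 ratios were -1.0, -1.78, -1.13 and -1.05 in rostral pools 1 to 4 and -2.79, -2.68, -3.01 and -2.94 in caudal pools 1 to 4. As with Dlx2, the parts did not overlap and rostral pool 2 was the lowest rostral pool. The means were -1.24 ± 0.36 and -2.85 ± 0.15 (SD, n = 4 each), a difference of 1.61 (SE 0.19), and 1.79 without rostral pool 2.

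In caudal pools Dlx1 has only an upper limit. The green spot read 206 to 333 intensity units in the rostral pools, where it was well above background in 4 of 4, and 90.5 to 104 in the caudal pools over a local background of 69 to 71, where it was well above background in 0 of 4. A floor was taken as the lowest level of any probe well above background on each caudal array, or the spot's own level where higher. The green Dlx1 level of the rostral pools was 2.89-fold above this floor. It is no strict limit: its mean was 6.52 on the log2 scale, and Dlx4 reached 6.88 in a caudal pool without being well above background. This fold uses levels of a single dye without a dye swap and is open to dye bias. The red spot was well above background on all 8 arrays, with log2 levels of 9.20 to 9.34. The processed signals gave a Dlx1 difference of 4.45 (rostral -1.48 ± 0.52, caudal -5.93 ± 0.29). Its size thus depends on how a near-background signal is handled, and it cannot be ranked against that of Dlx2. The direction was the same in every setting run, but settings that only left out pools could not reverse it, since the parts did not overlap.

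Dlx5, which acts in forebrain GABAergic neurons and in the skeleton, showed a small difference. Its log2 ratios were -1.14, -1.18, -0.51 and -0.94 in rostral pools 1 to 4 and -1.46, -1.47, -1.43 and -1.39 in caudal pools 1 to 4. The caudal pools lay close together, and the rostral pools were higher without overlap, pool 3 the highest and pool 2 the lowest. The means were -0.94 ± 0.31 and -1.44 ± 0.03 (SD, n = 4 each), a difference of 0.50 (SE 0.16), or 1.41-fold. Without rostral pool 3 the difference was 0.35, and without rostral pool 2 it was 0.58. The processed signals gave 0.83. Dlx5 was well above background in both channels on all 8 arrays, with red log2 levels of 8.71 to 9.14.

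Dlx6, the partner of Dlx5, was at the limit of detection and did not separate the parts. Its log2 ratios were 0.08, 0.01, 0.18 and -0.27 in rostral pools 1 to 4 and -0.12, -0.11, -0.13 and -0.47 in caudal pools 1 to 4, and the parts overlapped. The green spot was well above background in 1 of 4 rostral and 1 of 4 caudal pools and the red spot on 2 of 8 arrays, so ratios near 0 here mostly set 1 near-background signal against another. The difference of the means was 0.21 (SE 0.13), 0.12 without caudal pool 4, and 1.12 in the processed signals, where the SDs were 0.78 in rostral and 1.15 in caudal pools. On the array of caudal pool 1 the spot read 423 in green and 522.5 in red, against 94.5 to 109.5 in green and 109.5 to 141 in red on the other 7 arrays. The red channel holds the same reference RNA on every array, and the local background of this spot was also the highest of the 8, at 87.5 in green and 124 in red. Its ratio, -0.12, lay within the range of the other arrays.

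**Figure D2:**
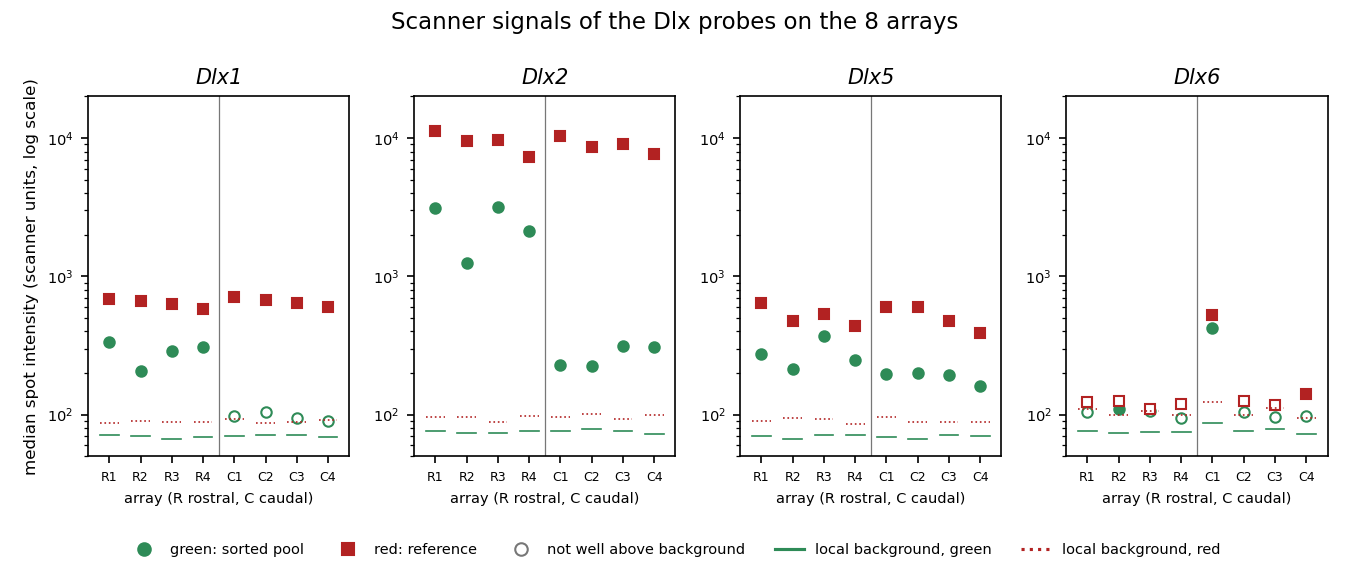
Median spot intensity (scanner units, log scale) of each Dlx probe on the arrays of rostral pools R1 to R4 and caudal pools C1 to C4, with circles for the sorted pool in green, squares for the reference in red, open symbols where not well above background, and short lines for the local background. The red squares of Dlx1, Dlx2 and Dlx5 overlap between the parts, those of Dlx5 ranging from 391 to 637, while the green circles of Dlx1 and Dlx2 drop in caudal pools. For Dlx6 both channels lie near background except on array C1.

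Of the 4 genes, 3 had rostral and caudal pools that did not overlap, each with the rostral pools higher. Of the 18097 genes tested for rostral against caudal, 12.5% did not overlap in either direction and 6.45% did so with the rostral pools higher. These pools chose the members, so nothing is read from that count. The same 3 genes lay below the reference in all 8 pools, as did 28% of the 18557 genes tested against it. Only 3 of the 4 passed the filter on dim probes, which asks for a green signal well above background on at least 4 arrays. Dlx1 passed through its rostral pools alone, and Dlx6 did not pass. The ratios to the reference stayed below 0 for Dlx1, Dlx2 and Dlx5 in all 8 pools with the processed signals, with median centring in place of loess and with an offset of 16. Red levels, which come from the same reference RNA on every array, differed between the parts by 0.04 to 0.06 on the log2 scale for Dlx1, Dlx2 and Dlx5.

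The arrays lay on 1 slide in 2 rows, each row with 2 rostral and 2 caudal pools. Within rows 1 and 2 the rostral-minus-caudal difference was 3.03 and 3.24 for Dlx2, 1.34 and 1.89 for Dlx1, 0.31 and 0.69 for Dlx5, and 0.16 and 0.26 for Dlx6. For Dlx1, Dlx2 and Dlx5 the parts do not overlap, so a higher rostral mean in each row was fixed in advance. For Dlx6, mostly near background, the rostral mean was also the higher one in each row. The order of their sizes depends on the handling of dim signals: in the processed signals Dlx1, at 4.45, lay above Dlx2, at 3.57, and Dlx6, at 1.12, above Dlx5, at 0.83. Dlx1 and Dlx2 also shared their order of rostral pools only in part: both had pool 2 lowest, but pool 1 was highest for Dlx1 and pool 3 for Dlx2 and Dlx5. After each gene was centred on its mean over the 8 pools, the root-mean-square difference between profiles was 0.83 for Dlx1 and Dlx2, 0.27 for Dlx5 and Dlx6 and 1.36 for Dlx2 and Dlx5, which reflects the sizes of the differences above.

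In the RefSeq gene table (assembly GRCm38.p6) Dlx1 and Dlx2 are next to each other on chromosome 2, and Dlx6 and Dlx5 on chromosome 6. The RefSeq promoter sequences of Dlx1 and Dlx2 are shown because these neighbours were both lower in every caudal pool than in any rostral pool. Promoter sequences were matched for 2 of the 4 genes. Each is the 250 bases before the annotated start, 5′ to 3′ on the gene's strand, at chr2:71529195-71529444 (+) for Dlx1 and chr2:71546755-71547004 (-) for Dlx2. Capitals mark CACGTG, a form of the E-box, the site class CANNTG bound by bHLH factors.
Dlx1 promoter: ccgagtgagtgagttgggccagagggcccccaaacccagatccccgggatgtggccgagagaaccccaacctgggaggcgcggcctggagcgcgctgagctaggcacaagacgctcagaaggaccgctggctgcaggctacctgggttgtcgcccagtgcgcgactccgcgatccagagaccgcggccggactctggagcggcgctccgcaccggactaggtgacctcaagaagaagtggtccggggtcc
Dlx2 promoter: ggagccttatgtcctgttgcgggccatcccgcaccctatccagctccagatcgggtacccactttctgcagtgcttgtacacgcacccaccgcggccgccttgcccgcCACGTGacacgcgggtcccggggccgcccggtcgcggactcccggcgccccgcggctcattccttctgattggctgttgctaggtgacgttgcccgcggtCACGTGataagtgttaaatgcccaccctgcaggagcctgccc
On either strand, the Dlx2 window held CACGTG 2 times, which were also its only 2 matches of CANNTG, and the Dlx1 window held 0 of either motif. The letters TAATTA, a core bound by many homeodomain factors including Dlx proteins, were found 0 times in either window. Over all 32851 promoter windows of this length 6.02% held CACGTG, 66.2% CANNTG and 4.84% TAATTA. Both windows were rich in G and C, at 68.0% for Dlx1 and 66.4% for Dlx2 against a median of 52.4%. These matches describe letters in a window and no binding was measured.

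Of the relatives and antisense RNAs of the family, 5 had a probe, and limma called 0 of the 3 that were tested, beside 6.33% of all 18097 genes tested (638, or 3.53%, up in rostral and 507, or 2.8%, up in caudal pools). Dlx6os1, the noncoding RNA that overlaps Dlx6 on the opposite strand, had log2 ratios of -1.0, -0.95, -1.26 and -1.01 in rostral pools and -1.62, -1.20, -1.14 and -1.23 in caudal pools. The green spot was well above background in 3 of 4 rostral and 2 of 4 caudal pools, so these ratios rest partly on near-background signals. The parts overlapped, and the difference of 0.24 (SE 0.14) did not pass the test (adjusted p = 0.429), nor did the 0.93 of the processed signals. Its mean ratio of -1.18 lay below the reference (adjusted p = 2.82e-07), as did 36.9% of the 18557 genes tested against the reference, while 34.6% lay above it. Dlx6os2 differed by 0.08 (SE 0.13, adjusted p = 0.833) and Dlx3, known from skin and placenta, by 0.03 (SE 0.10, adjusted p = 0.925). Those 3 had an unadjusted p above 0.05 as well.

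The other 2 relatives were too dim to test. Dlx1as, the antisense transcript of Dlx1, was well above background on 0 of 8 arrays in either channel. Dlx4, whose known role is outside the brain, was well above background in 3 of 4 rostral and 0 of 4 caudal pools, with log2 ratios of 1.05, 0.05, 0.41 and -0.09 in rostral and 0.00 to 0.04 in caudal pools. Its red spot was well above background on 0 of 8 arrays. Rostral pool 4 lay below the caudal pools, so the parts overlapped, and rostral pool 1 was the highest.

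Protein-coding neighbours of both Dlx loci differed by at most 0.80 on the log2 scale between the parts. Of the 10 tested, 3 were higher in rostral and 0 in caudal pools, beside 3.53% and 2.8% of all genes tested. The median difference was 0.23 against 0.01 over all genes tested. Asns, asparagine synthetase, near Dlx5 and Dlx6, was 1.41-fold higher in rostral pools (log2 0.49, SE 0.08, adjusted p = 0.00783). Slc25a12, a mitochondrial aspartate-glutamate carrier near Dlx1, was 1.28-fold higher (0.36, SE 0.07, adjusted p = 0.0155, but 0.0880 with median centring), and its paralogue Slc25a13 near Dlx5 1.74-fold higher (0.80, SE 0.18, adjusted p = 0.0294). Sdhaf3, next to Dlx5, differed by 0.37 and did not pass (adjusted p = 0.121). The Slc25a13 call was lost without rostral pool 1 or 3 or caudal pool 1, 2 or 4 (adjusted p = 0.0551 to 0.0827).

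Regulators that act upstream of or beside Dlx genes in the forebrain were mostly not called. Of 9 tested, 1 was higher in rostral and 0 in caudal pools (median difference 0.29), beside 3.53% and 2.8% of all genes tested. All 9 lay below the reference, beside 36.9% of all genes. The called gene was Nkx2-1, a homeobox gene of hypothalamus and ventral telencephalon, at -1.34, -1.63, -1.58 and -1.62 in rostral pools and -3.97, -3.84, -3.86 and -3.73 in caudal pools. These values did not overlap and were tight within each part, the difference being 2.31 (SE 0.13, 4.95-fold, adjusted p = 0.000106), and 3.58 in the processed signals. The zinc finger gene Sp8 differed by -0.73 (adjusted p = 0.106), and passed as higher in caudal pools with the slide row as a block (adjusted p = 0.0420).

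Genes known to act downstream of Dlx factors in forebrain went both ways. Of 17 tested, 2 were higher in rostral and 3 in caudal pools, beside 3.53% and 2.8% of all genes tested. The median difference was 0.06. Etv1, an ETS factor gene of migrating interneurons, was at -0.40, 0.73, 1.26 and 0.58 in rostral and -1.95, -2.26, -1.51 and -2.36 in caudal pools, 5.90-fold higher in rostral pools (log2 2.56, SE 0.32, adjusted p = 0.00256). A dimmer second probe of Etv1, well above background in 3 rostral pools and 1 caudal pool, gave 0.63. Gad2, which makes GABA, was 2.13-fold higher in rostral pools (0.46 ± 0.44 against -0.63 ± 0.44, adjusted p = 0.0341). That call was lost without any 1 of 6 pools, namely rostral pools 1, 3 and 4 and caudal pools 1, 2 and 4 (adjusted p = 0.0600 to 0.0921).

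The 3 genes higher in caudal pools are likewise known from interneurons. Sst, the somatostatin precursor, was 2.08-fold higher (rostral -4.05 ± 0.18, caudal -3.00 ± 0.23, adjusted p = 0.00207). Cxcr4, a chemokine receptor gene of migrating interneurons, was 5.05-fold higher (log2 difference -2.34, SE 0.46, adjusted p = 0.0177, and 0.0501 without caudal pool 1), with rostral pool 3 at -2.09 and the other rostral pools between -0.16 and 0.42. Maf was 1.82-fold higher by its brighter probe (log2 difference -0.86, adjusted p = 0.0153), and its other probe gave -0.54. The main GABA-synthesising enzyme gene Gad1 and the vesicular GABA transporter gene Slc32a1, which were named after their values were seen, had differences of 0.04 and 0.46 with adjusted p of 0.963 and 0.131.

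**Figure D3:**
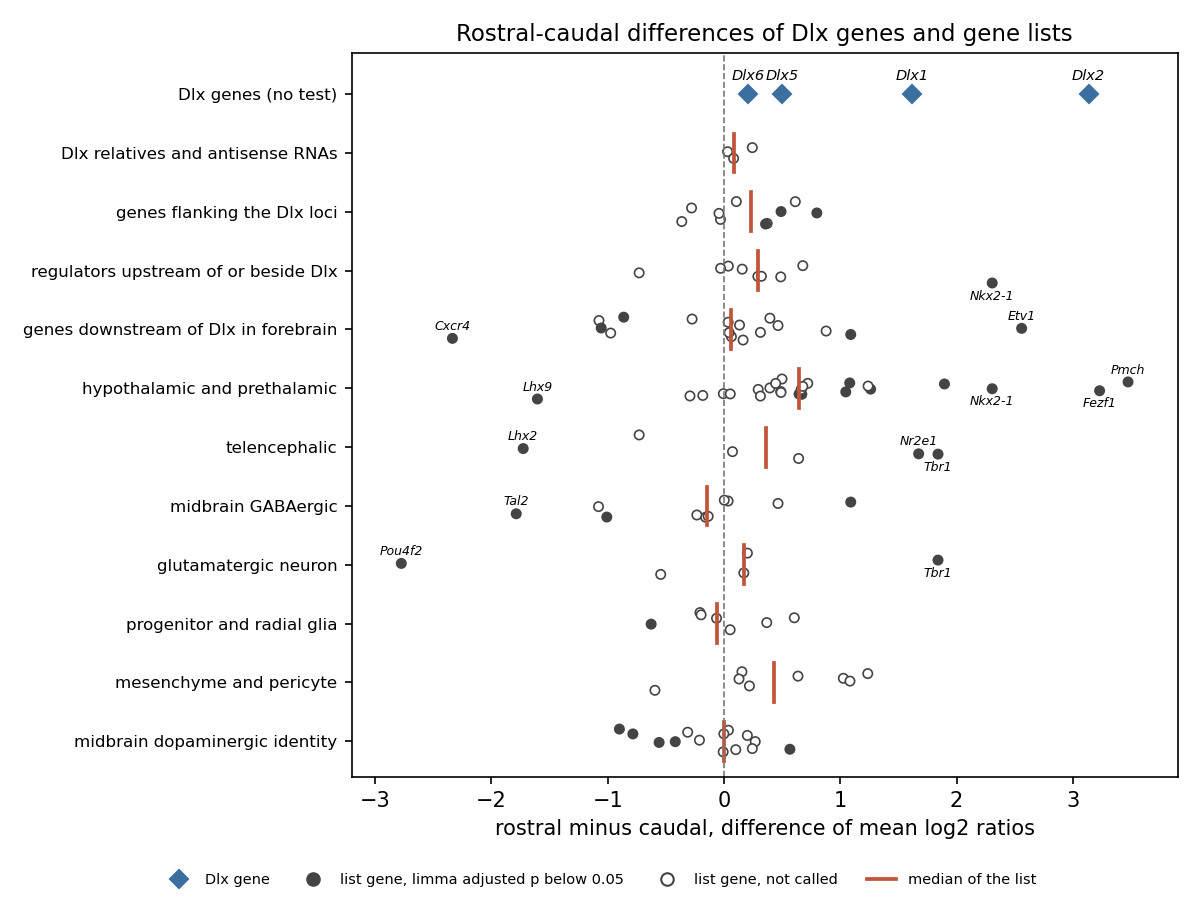
Rostral-minus-caudal difference of mean log2 ratios for the 4 Dlx genes (diamonds, no test) and for the tested members of 11 gene lists (filled where limma's adjusted p was below 0.05), with a vertical bar at each list's median; called genes that differ by at least 1.5 are labelled, apart from one hypothalamic gene. The hypothalamic, mesenchyme and telencephalic lists have medians of 0.65, 0.43 and 0.36, and those of regulators, flanking genes and glutamatergic genes 0.29, 0.23 and 0.17. All pools enter these medians, also rostral pool 2, where the summed mesenchyme level was highest. The lists of relatives, downstream genes and dopaminergic genes have medians between -0.00 and 0.08, and those of progenitor and midbrain GABAergic genes -0.06 and -0.15.

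Markers of the tissues where Dlx genes are known to be expressed were set beside them. Of 25 tested hypothalamic and prethalamic markers, 9 were higher in rostral and 1 in caudal pools (median difference 0.65). The 9 include Nkx2-1, the called regulator described above, so both counts share this gene. The shares over all genes tested were 3.53% and 2.8%. Of 26 tested against the reference 25 lay below it, beside 36.9% of all genes. Fezf1, a zinc finger gene of the forebrain, was at -0.47, -1.76, -0.49 and -0.91 in rostral and -4.39, -3.83, -4.27 and -4.07 in caudal pools (difference 3.23, SE 0.28, adjusted p = 0.000591). Pmch, the precursor of melanin-concentrating hormone, was at -1.53, -2.83, -1.28 and -1.30 in rostral and -5.37, -4.82, -5.13 and -5.53 in caudal pools (difference 3.47, SE 0.34, adjusted p = 0.000809). Both cleared background in 4 of 4 rostral and in 1 of 4 caudal pools, so they entered the test through the rostral pools and the size of their differences depends on the offset: the processed signals gave 6.20 for Fezf1 and 5.96 for Pmch. Both had rostral pool 2 lowest. Of the 9 markers called higher in rostral pools, 4 were well above background in at most 1 caudal pool and 5 in all 4 caudal pools, and the filter admits a marker that is measured in rostral pools alone, so the count is given as a description of the markers that passed it. The marker higher in caudal pools was Lhx9, named after its value was seen, at 3.04-fold (adjusted p = 0.00240).

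Over the whole list of 29 hypothalamic and prethalamic markers with a probe, the summed green level was 35306 to 43221 intensity units in rostral and 32305 to 40825 in caudal pools, which overlap. Such a sum follows its brightest probes, so the overlap does not show that the dimmer markers were alike in the parts. Between 24 and 26 of the 29 were well above background in a rostral pool and 19 to 22 in a caudal pool. The 3 markers above background in 0 of the 8 pools were Otp, Pax6 and Nkx2-4. The red spots of these 3 probes were also above background on 0 of 8 arrays, so they gave no signal in the reference either. The part of hypothalamic cells in the Dlx values was not tested.

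Telencephalic markers were fewer and mixed. Of 6 tested, 2 were higher in rostral and 1 in caudal pools (median 0.36), beside 3.53% and 2.8% of all genes tested. All 8 tested against the reference lay below it, beside 36.9% of all genes. Nr2e1, of neural progenitors, was 3.19-fold higher in rostral pools (log2 1.67, adjusted p = 0.0123, and 2.66 in the processed signals). Tbr1, of cortical glutamatergic neurons, was 3.58-fold higher (log2 1.84, SE 0.41, adjusted p = 0.0273), a call lost without rostral pool 3 or 4 or caudal pool 1, 2 or 3 (adjusted p = 0.05005 to 0.0748), and with the mean over its probes (0.0677), and its second probe, dim in most pools, gave -0.05. Lhx2 was 3.31-fold higher in caudal pools (adjusted p = 0.000809). The summed level of the 9 with a probe was 7384 to 10429.9 intensity units in rostral and 11073 to 14037 in caudal pools. Lhx2 alone made up 2583 to 2938 of this in rostral and 7047 to 11003 in caudal pools. The other 8 summed to 4568 to 7698 in rostral and 3034 to 5466 in caudal pools, which overlap.

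Markers on the midbrain GABAergic list went both ways. Of 10 tested, 1 was higher in rostral and 2 in caudal pools (median -0.15), beside 3.53% and 2.8% of all genes tested. Tal2, a bHLH gene that specifies midbrain GABAergic neurons, was 3.45-fold higher in caudal pools (log2 difference -1.79, SE 0.16, adjusted p = 0.000661), and Tal1 was 2.01-fold higher (-1.01, adjusted p = 0.0428). The call for Tal1 was lost without any 1 of 7 pools, all but caudal pool 2 (adjusted p = 0.0596 to 0.105), and with the processed signals, median centring, no filter, the mean over probes or the slide row as a block (0.0514 to 0.0619). Gata3 and Gata2, named after their values were seen, differed by -1.08 and 0.00 and did not pass (adjusted p = 0.0757 and 0.994). The Gata3 pools of the parts did not overlap. The gene higher in rostral pools was Gad2, described above, which is also on the list of genes downstream of Dlx in forebrain. The list's summed level, which counts Gad1, Gad2 and Slc32a1 too, was 157222 to 251974 in rostral and 113776 to 173095 in caudal pools, which overlap. Such a sum follows its brightest probes, so it does not show how Tal1 and Tal2 differed between the parts.

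The other marker lists bear on which cells the pools held. All 14 genes of midbrain dopaminergic identity lay above the reference, beside 34.6% of all genes tested against it. Their summed levels were 1822813 to 2080812 in rostral and 1981956 to 2188203 in caudal pools. Over all genes tested, 3.53% were higher in rostral and 2.8% in caudal pools. Of the 14 genes 1 was higher in rostral pools, the retinaldehyde dehydrogenase gene Aldh1a1 (1.48-fold, adjusted p = 0.00664). Caudal pools were higher for 4, the midbrain homeobox genes En2 (1.87-fold, adjusted p = 0.00281) and En1 (1.72-fold, adjusted p = 0.0142), the vesicular transporter gene Slc18a2 (1.47-fold, adjusted p = 0.00778), and the GDNF receptor gene Ret, named after its value was seen (1.34-fold, adjusted p = 0.0255).

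Among 5 glutamatergic genes Tbr1 was higher in rostral pools and Pou4f2 6.85-fold higher in caudal pools (adjusted p = 0.000661), with summed levels of 24539 to 39168 in rostral and 28365 to 31819 in caudal pools. Of 7 progenitor and radial glia genes tested 1, the intermediate filament gene Vim, was 1.54-fold higher in caudal pools (adjusted p = 0.0118), and summed levels were 52236 to 65156 in rostral and 63739 to 73682 in caudal pools. Of 8 tested mesenchyme and pericyte genes 0 were called by limma with all pools (median difference 0.43). This median includes rostral pool 2. Without that pool the difference fell from 1.24 to -0.03 for Col1a1 and from 1.03 to 0.26 for Col3a1. Beside the counts of these lists stands the 6.33% of all genes tested that limma called. Without rostral pool 2 Twist1 passed as higher in caudal pools (adjusted p = 0.0264), and Pdgfrb passed as higher in rostral pools without rostral pool 3 or caudal pool 2 (adjusted p = 0.0344 to 0.0389).

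The genes whose values over the 8 pools were most like each Dlx gene were found by the smallest root-mean-square difference between centred log2 ratios, among the genes tested. They were picked for likeness, so no test is given. For Dlx2 the nearest was Fezf1, at 0.22, followed by Pmch at 0.36 and Nkx2-1 at 0.57, against an SD of 1.74 for Dlx2 itself over the pools. The closeness of Fezf1 and Pmch depends on the handling of dim signals, since both were not well above background in 3 of 4 caudal pools: among 18044 genes ranked in the processed signals Fezf1 was 686th and Pmch 513th, while Nkx2-1, at 0.41, was nearest. For Dlx1, with an SD of 0.90, the nearest were the FGF receptor gene Fgfr3 (0.18), the homeobox gene Gbx2 (0.23) and the membrane protein gene Cd47 (0.24). The caudal part of the Dlx1 profile is a near-background signal, so this order too depends on the offset, and in the processed signals Gbx2 ranked 4, Cd47 81 and Fgfr3 113. Gbx2 was, like Dlx1, well above background in 4 of 4 rostral and 0 of 4 caudal pools, and its rostral green level was 2.88-fold above a floor taken as for Dlx1. A second probe of Fgfr3 gave a difference of -0.35 where the first gave 1.44, while the second of Cd47 gave 1.53 where the first gave 1.57.

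**Figure D4:**
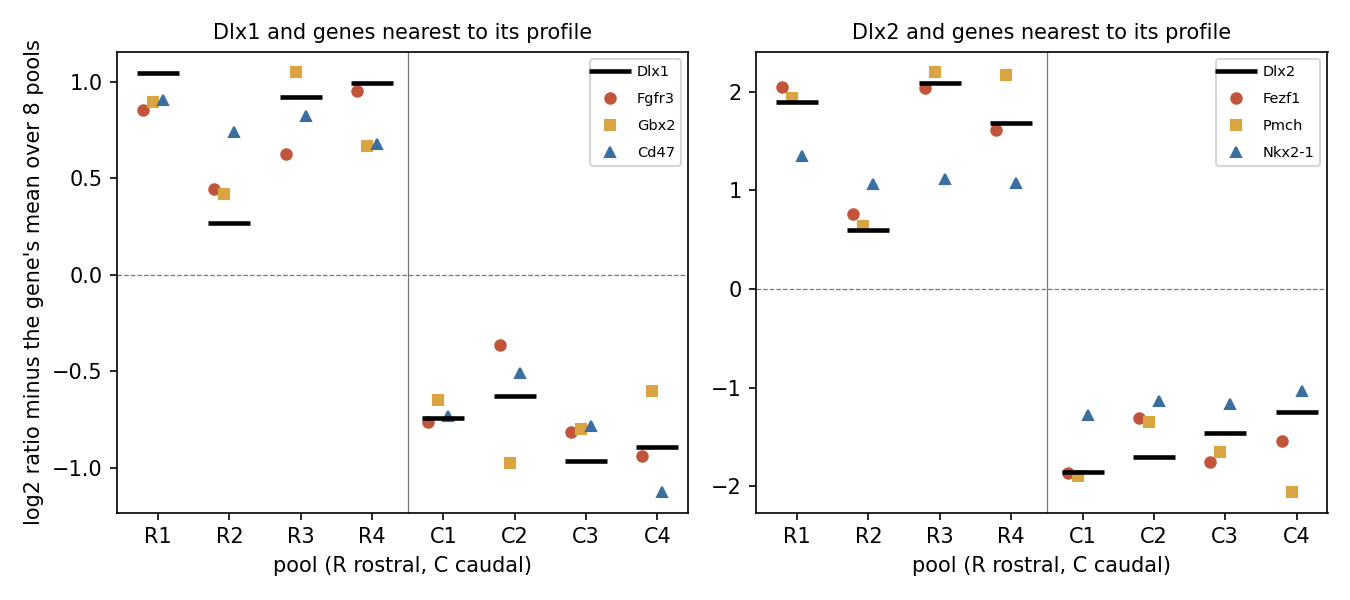
Log2 ratio minus the gene's own mean over 8 pools, for Dlx1 (left) and Dlx2 (right, black bars) and the 3 genes nearest to each, with rostral pools R1 to R4 and caudal pools C1 to C4 on the x axis. Caudal Dlx1, Gbx2 and most caudal Fezf1 and Pmch values are near background. Fezf1 and Pmch dip in R2 as Dlx2 does, and Nkx2-1 dips little.

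For Dlx5, with an SD of 0.34, the nearest were the kinase gene Stk39 (0.08), Klhl1 (0.09) and Ubash3b (0.09), with differences of 0.52, 0.58 and 0.45, and ranks of 51, 41 and 63 in the processed signals. Unlike Dlx5, Klhl1 lay far above the reference, at 3.1 on average. For Dlx6, with an SD of 0.20, they were the ciliary gene Bbs5 (0.06), Gm4022 (0.07) and the activin receptor gene Acvr1b (0.08), with differences of 0.19, 0.14 and 0.24. The profile of Dlx6 is mostly that of a near-background spot, so this likeness carries little information.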

How the data were processed

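RNA of 4 rostral and 4 caudal Gfp-positive pools was measured on 8 two-colour Agilent arrays. Per the file headers, the authors extracted spot intensities with Agilent Feature Extraction 10.7.3.1; median spot and background intensity were used as deposited, with no normalization. The deposited processed intensities are background-subtracted and dye-normalized, per the file headers. The submitters' processing notes also list RMA, without version or role. The deposited annotated table served for probe names; its 8 columns of values match no sample label and were not used.

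Analysis used R 4.3.3, limma 3.58.1 and the data.table package, version 1.17.8. Background was corrected by normexp (offset 50) and arrays by loess, with control and outlier spots (210 to 298 per array) at weight 0; 59305 of 62976 spots were not controls. The log2 ratio is green over red. Levels per channel are after loess and Aquantile. Of 55681 probes, 27528 were named by accession through RefSeq (GRCm38.p6), 4105 by the table, and 24048 were unnamed. The brightest probe stood for a gene. Genes well above background in green (against the reference, in either channel) on at least 4 of 8 arrays were tested with limma (lmFit, eBayes with trend; 2-sided), adjusted by Benjamini-Hochberg, with a threshold of 0.05. A list's summed level adds linear green levels of its probes. The fits were tested on simulated data.

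The reference counts as 1 control sample, its spread is left out, and dyes were not swapped, so dye effects are part of each ratio. Against it limma called 6419 genes higher and 6854 lower; the processed signals gave 7290 and 6244, median centring 8406 and 5262.

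The members and lists were chosen with earlier results of these data known. Named were all Dlx probes and relatives, the 4 tested genes of lowest p in each list, the 3 genes nearest each Dlx gene, and Th, Slc6a3 and Pitx3. Some list genes are not reported here and were left out of the lists' counts, medians and sums. Alternatives were the processed signals, median centring, no filter on dim probes, the mean over probes, replicate and slide-row blocks, single slide rows, leaving out each pool, and, added after seeing the data, an offset of 16, likeness ranks in the processed signals and a telencephalic sum without Lhx2.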

Additional observations from a re-analysis of the deposited data

Results flagged for a closer look

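In 106 groups of 4 pools, over 53 named genes, a single pool stood far from the other 3 of its group 9 times, where chance gives about 1 in 20 groups. For Dlx1, rostral pool 2 was at a log2 ratio of -1.78 and the next rostral pool at -1.13. For Dlx6, caudal pool 4 was at -0.47 and the next at -0.13, in spots mostly near background. Rostral pool 2 was also far from the other rostral pools for Pmch (-2.83) and, upward, for Slc25a12 (0.53). Rostral pool 1 was high for Tbr1 (0.28) and rostral pool 3 for Klhl1 (3.76). Caudal pool 2 stood apart for Aldh1a1 (5.14, low), Sst (-2.65, high) and Tal1 (-2.92, high).

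Cd47, one of the genes most like Dlx1, lay on opposite sides of the reference in the parts, above it in 4 of 4 rostral and below it in 4 of 4 caudal pools, with a rostral-minus-caudal difference of 1.57.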

How the results depend on the processing

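The Dlx differences kept their direction under all settings run. For Dlx1, Dlx2 and Dlx5, whose parts do not overlap, leaving out pools or taking single slide rows could not reverse it. The blocks left the differences unchanged, and the Dlx6 spots were mostly near background. Beside main values of 1.61 for Dlx1, 0.50 for Dlx5 and 0.21 for Dlx6, the processed signals gave 4.45, 0.83 and 1.12, and an offset of 16 gave 2.17 for Dlx1; the cause was not tested beyond the dim signals. Leaving out each pool in turn gave 1.53 to 1.79 for Dlx1, 2.96 to 3.46 for Dlx2, 0.35 to 0.58 for Dlx5 and 0.12 to 0.30 for Dlx6, 715 (without caudal pool 1) to 1011 genes called rostral against caudal, where all pools gave 1145, 12629 to 12890 called against the reference, where all pools gave 13273, and 24 to 30 list members, where all pools gave 30. Without caudal pool 4 the count was 754. Within slide row 1, with 2 pools a part, limma called 0 genes and 0 list members, with 2376 genes under 0.05 before adjustment, and in row 2 it called 186 genes and 11 list members; fewer samples enter these fits. With the replicate number as a block 724 genes were called. Same-numbered pools did not deviate together (correlations of -0.07 to 0.02, against -0.10 to 0.11 for pools of unlike number). With 4 pools a part this cannot tell whether same-numbered pools share embryos, so pairing is unknown. Of 47 named genes tested, 27 were called; 21 kept the call without each pool in turn, 6 lost it without at least 1 pool, and 5 (En1, Gad2, Slc25a12, Slc25a13 and Vim) lost it under the block (adjusted p = 0.0506 to 0.0656), while 0 reversed. Ubash3b, uncalled with all pools (adjusted p = 0.0506), passed without rostral pool 2, with median centring and with the mean over probes, and Klhl1 lost its call without caudal pool 1, 2 or 4 (adjusted p = 0.0580 to 0.0590). Dim signals limit Dlx1 in caudal pools and Dlx6 in all, and the size of the Dlx5 difference also moved with the processing.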
